A study of Mus musculus with 4 samples.

Results

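Cardiomyocytes of the atrioventricular canal (AVC), the muscle that joins the embryonic atria to the ventricles, were picked out of single-cell RNA sequencing of mouse hearts at E10.5. In this droplet assay each mRNA molecule carries a unique molecular identifier (UMI), so a value is a count of molecules per gene and cell. A cell had 500 to 6000 genes, 2000 to 50000 UMIs and at most 20% mitochondrial UMIs. An AVC cell had, in addition, at least 10 UMIs of Tnnt2 per 10000 UMIs of the cell (CP10K), at least 1 UMI each of Bmp2 and Tbx2, no UMI of Shox2, at most 1 UMI of Sema3c and under 10 CP10K of Myl2. Of 28025 cells, 283 met these limits, with 30, 60, 105 and 88 in the libraries Wt1, Wt2, Ho1 and Ho2, and 9776 cells passed the Tnnt2 limit alone. The cells were thus selected on the measured counts of 6 genes, whose own levels are given as a description with no test.

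The hearts came from C57BL/6J embryos that were either wild-type (Wt, 2 libraries) or homozygous for the Cyp51 I383V allele (Ho, 2 libraries). The allele had been knocked in by CRISPR/Cas9 and homology-directed repair and changes 1 residue of the sterol 14α-demethylase CYP51, an enzyme of cholesterol synthesis, in every cell of the embryo, and the labels list CRISPR/Cas9 as the treatment of the Wt samples too. How many hearts were pooled in a library, and whether the libraries of a genotype came from separate litters, is not given in the sources used here, so p-values measure the spread between these libraries, which may be technical. Values of the 4 libraries are given throughout in the order Wt1, Wt2, Ho1 and Ho2. Levels are CPM, UMIs per 1000000 UMIs of the summed cells, and log2 fold changes are given ± SE from edgeR's quasi-likelihood test, with p-values adjusted over all genes tested by the Benjamini-Hochberg method and called under 0.05.

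AVC myocardium conducts slowly, proliferates little and signals to the endocardium beneath it, from which the valve cushions arise. BMP2 made by this myocardium acts through BMP receptors and SMAD proteins and is required for the T-box factor TBX2, which with the related TBX3 represses the genes of the working chambers. Inhibitory SMADs, ID proteins and MSX2 are known targets of BMP signalling, whereas the natriuretic peptide Nppa and the connexin 40 gene Gja5 are among the chamber genes that TBX2 and TBX3 hold down.

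The Nppa promoter is shown because Nppa was among the genes with the lowest level in AVC cells relative to other cardiomyocytes and is a known TBX2 target. The 250 bases upstream of its start lie at chr4:148000472-148000721 on the plus strand (GRCm38.p6, sequence from RefSeq), and capitals mark the T-box half-site, searched as GGTGTGA and, on the other strand, TCACACC.
Nppa promoter: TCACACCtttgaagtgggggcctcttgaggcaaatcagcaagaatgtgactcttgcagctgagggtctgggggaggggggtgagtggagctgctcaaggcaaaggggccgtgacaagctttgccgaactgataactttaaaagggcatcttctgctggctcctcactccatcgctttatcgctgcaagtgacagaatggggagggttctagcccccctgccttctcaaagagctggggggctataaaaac
The match lies at bases -250 to -244 from the start. These letters occurred in 3.33% of 32851 promoters of the same length, in 1 of 12 matched promoters of the chamber gene list (Nppa) and in 0 of 17 matched promoters of the BMP gene list. A match describes the letters in this window only.

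The level of Tnnt2, the cardiac troponin T gene, was 3987, 3474, 3476 and 3617 CPM in the summed AVC cells and 3366, 3449, 3214 and 3419 CPM in the 9493 other cells past the Tnnt2 limit, called other Tnnt2 cells below. Bmp2 (chr2:133552159-133562885) stood at 165, 143, 229 and 284 CPM in AVC cells and Tbx2 (chr11:85832551-85841948) at 97.9, 72.9, 82.8 and 90.5 CPM, against 16.8, 15.5, 22.5 and 29.8 and 8.52, 8.79, 9.46 and 11.8 CPM in other Tnnt2 cells. Many members met the limits by a single molecule, since 72 of 283 had 1 UMI of Bmp2, 167 had 1 UMI of Tbx2 and 49 had 1 UMI of each. Tnnt2 in the members ran from 10.7 to 91.0 CP10K with a median of 37.1, and 9 members lay within 2 CP10K above the limit, while 3 cells that met every other limit lay within 2 CP10K below it. Myl2, the ventricular myosin light chain, had a median of 1.75 CP10K, was at 0 in 37 members and lay from 8 to 10 CP10K in 23, with 15 cells just outside, from 10 to 12 CP10K. The Tbx2 limit was the one that most often decided, with 412 cells failing that limit alone, against 197 for Bmp2, 184 for Myl2, 128 for Tnnt2, 77 for Shox2 and 32 for Sema3c.

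Summed AVC cells held 449257, 1221181, 1955429 and 1844387 UMIs, so that Wt1 was the least precise library. Members had medians of 14476, 18688, 15711 and 20466 UMIs, against 14706, 19624, 19132 and 19225 in other Tnnt2 cells. A doublet caller (Scrublet) marked 0, 8, 8 and 6 members, or 0, 13.3, 7.62 and 6.82% of them, against 4.02, 4.84, 6.67 and 2.90% of other Tnnt2 cells. Between 7 and 28 barcodes were shared by any 2 libraries, no barcode was a member in 2 libraries, and 1 member barcode of the 283 was also found in another library. Ho1 stood apart in sex, with 32234 UMIs of Xist and 0 of 4 Y chromosome genes, while the other 3 libraries held 2 to 5 UMIs of Xist and 9968 to 10873 of the Y genes. The genotype comparison was therefore of 2 Wt libraries with Y gene expression and 1 Ho library with and 1 without, and the part of sex in it was not tested.

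Markers outside the selection rule bore on the label. Tbx3 (chr5:119670669-119684724, gene positions from GRCm38), a T-box repressor of the AVC and the later conduction system, was at 33.4, 33.6, 77.7 and 61.3 CPM in AVC cells and at 10.9, 8.98, 13.2 and 16.1 CPM in other Tnnt2 cells. Msx2 (chr13:53466884-53473074), a homeobox gene induced by BMP, was at 46.7, 62.2, 91.5 and 83.0 CPM against 13.7, 14.7, 16.2 and 17.6 CPM. In both genes each AVC sum lay above each sum of the other cells, with log2 fold changes of 2.03 ± 0.14 (adjusted p = 5.77e-12) for Tbx3 and 2.14 ± 0.11 (adjusted p = 2.33e-14) for Msx2. A Tbx3 UMI was found in 36.7, 41.7, 65.7 and 63.6% of members and in 2.57, 1.76, 2.14 and 1.25% of endothelial cells of the same libraries (Tnnt2 under 10 CP10K, Cdh5 and Pecam1 present), whose median depths were 14099, 16489, 17092 and 16872 UMIs. The label thus held for the members as a whole. A minority of 47 members had an Isl1 UMI, and those of Wt1, Wt2 and Ho2, described with the genotype comparison, went against the label in several genes.

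Against all other Tnnt2 cells, 1936 of 12681 genes tested passed the threshold (15.3%), 776 higher (6.12%) and 1160 lower (9.15%) in AVC cells, with a median log2 fold change near 0 over all genes. Genes that vary with a gene of the rule from cell to cell, such as Myl3 with Myl2, are not fully independent of how the cells were chosen. A second comparison therefore used 1888 cells under the same Myl2 and Sema3c limits and with no UMI of Bmp2, Tbx2 or Shox2, called Bmp2/Tbx2-negative cells. There 2121 of 10654 genes passed (19.9%), 1025 higher (9.62%) and 1096 lower (10.3%). Both comparisons rest on the same AVC sums, so their values are set side by side and not counted as 2 lines of support. Without Ho1 the calls fell to 1282 and 1351 and without Ho2 to 1163 and 1292, in the first and the second comparison.

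**Figure D1:**
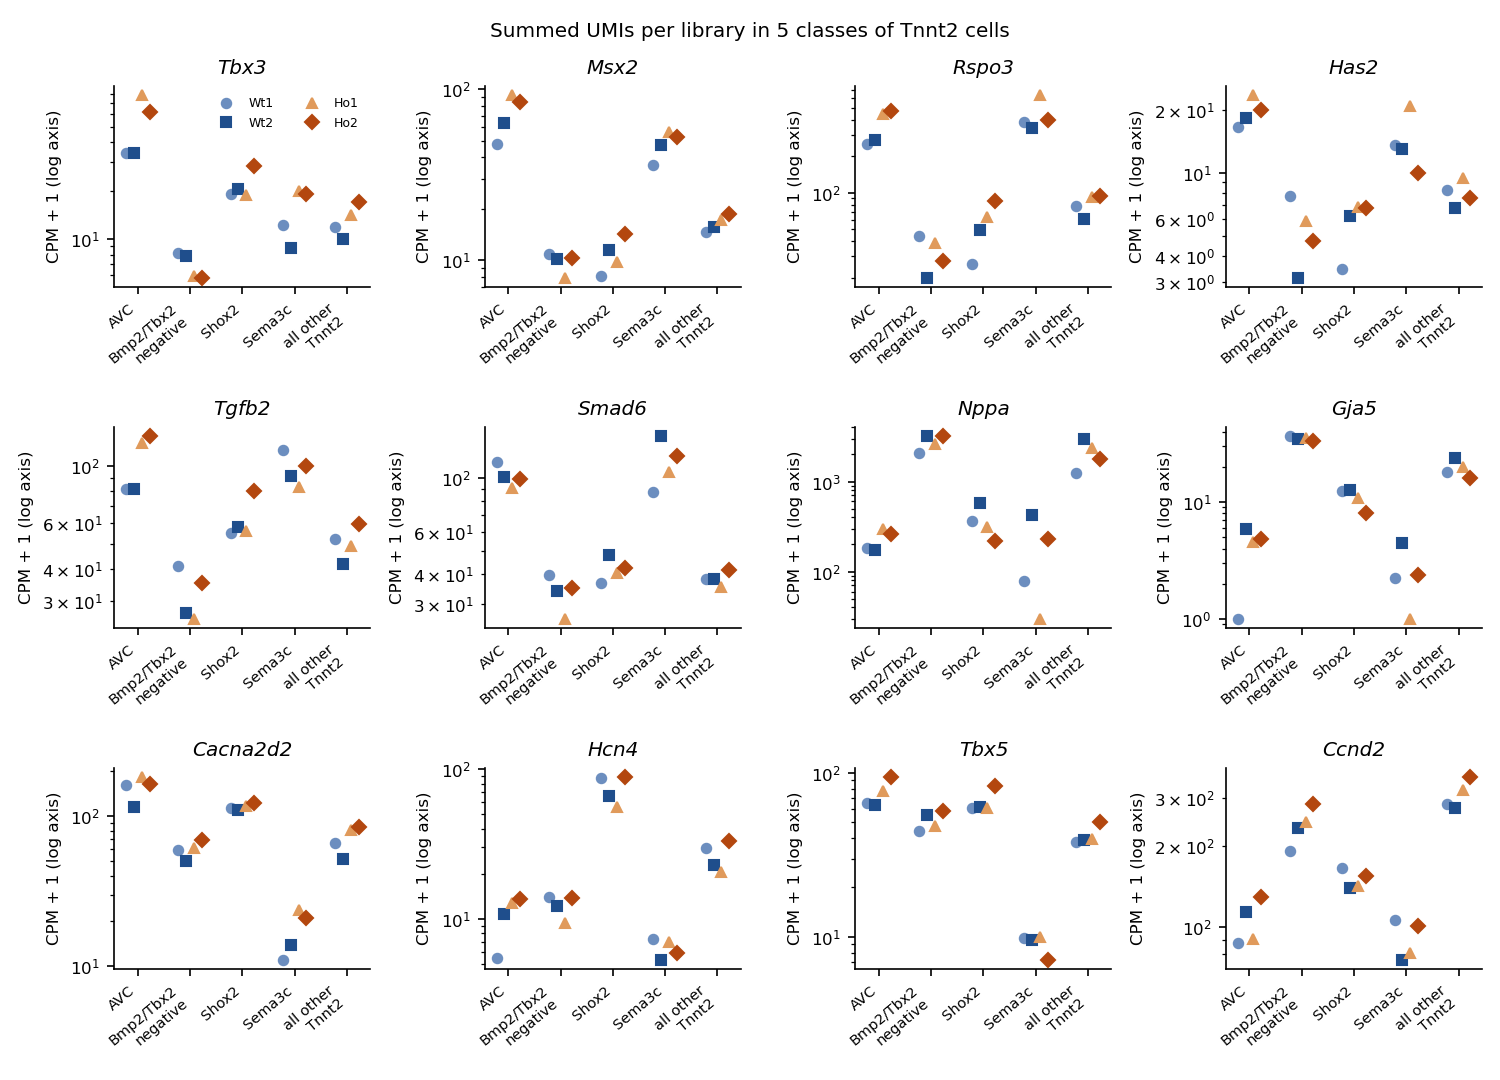
Levels of 12 genes in 5 classes of Tnnt2 cells, with 1 point per library on a log axis of CPM + 1. Tbx3, Msx2 and Rspo3 stood higher in AVC cells than in the Bmp2/Tbx2-negative cells in all 4 libraries, and Nppa and Gja5 stood lower.

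Targets and feedback inhibitors of BMP signalling were raised in AVC cells beside other Tnnt2 cells and Bmp2/Tbx2-negative cells. They were not raised as a list beside the Sema3c cells described further on, where 3 of 20 tested were higher and 4 lower, with a median of -0.07. Of 22 tested genes of the BMP list, Bmp2 left out, 10 were higher and 3 lower than in other Tnnt2 cells, with a median log2 fold change of 0.34, and the same counts and a median of 0.37 were found against Bmp2/Tbx2-negative cells. The 10 higher genes were Smad6, Smad7, Smad9, Bambi, Id1, Id2, Id3, Id4, Msx1 and Msx2 in both comparisons. Smad6, an inhibitory SMAD, was at 116, 99.9, 89.5 and 98.1 CPM in AVC cells and 37.3, 37.2, 34.4 and 40.7 CPM in other Tnnt2 cells, which did not overlap, a log2 fold change of 1.29 ± 0.09 (adjusted p = 1.74e-11). Smad7, the other inhibitory SMAD, rose by 0.90 ± 0.08 and Bambi, a receptor without kinase activity that blocks BMP signalling, by 0.64 ± 0.06 on the log2 scale. Among the ID genes, which encode inhibitors of helix-loop-helix factors, Id4 had the largest change with 1.68 ± 0.15 (adjusted p = 1.35e-09), and Id3 was at 609.9, 775, 568 and 507 CPM against 421, 316, 296 and 327 CPM. Id1 rose least, by 0.33 ± 0.09, and lost its call without Ho1, as did Smad9, while Msx1 lost it without Wt2 or without Ho2. In members with Isl1 at 0 UMIs, an alternative chosen after seeing the data, Id1 and Msx1 were no longer called against all other Tnnt2 cells, with -0.073 and 0.30.

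The lower members of the list were not feedback genes. Bmp10, a BMP ligand of the trabecular muscle, was at 0, 0.819, 2.05 and 2.71 CPM in AVC cells and 9.68, 15.7, 17.9 and 15.5 CPM in other Tnnt2 cells, a log2 fold change of -3.23 ± 0.31 (adjusted p = 6.52e-09). Bmp7, another ligand, was lower by -0.36 ± 0.10, and Smad4, the SMAD shared by the BMP and TGF-beta pathways, by -0.39 ± 0.10 on the log2 scale, and both lost their call without Ho2, which left 9 higher genes and 1 lower. Bmp7 also lost it with Isl1 at 0 UMIs. The receptors Bmpr1a, Bmpr2 and Acvr1 did not pass the test in either comparison.

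**Figure D2:**
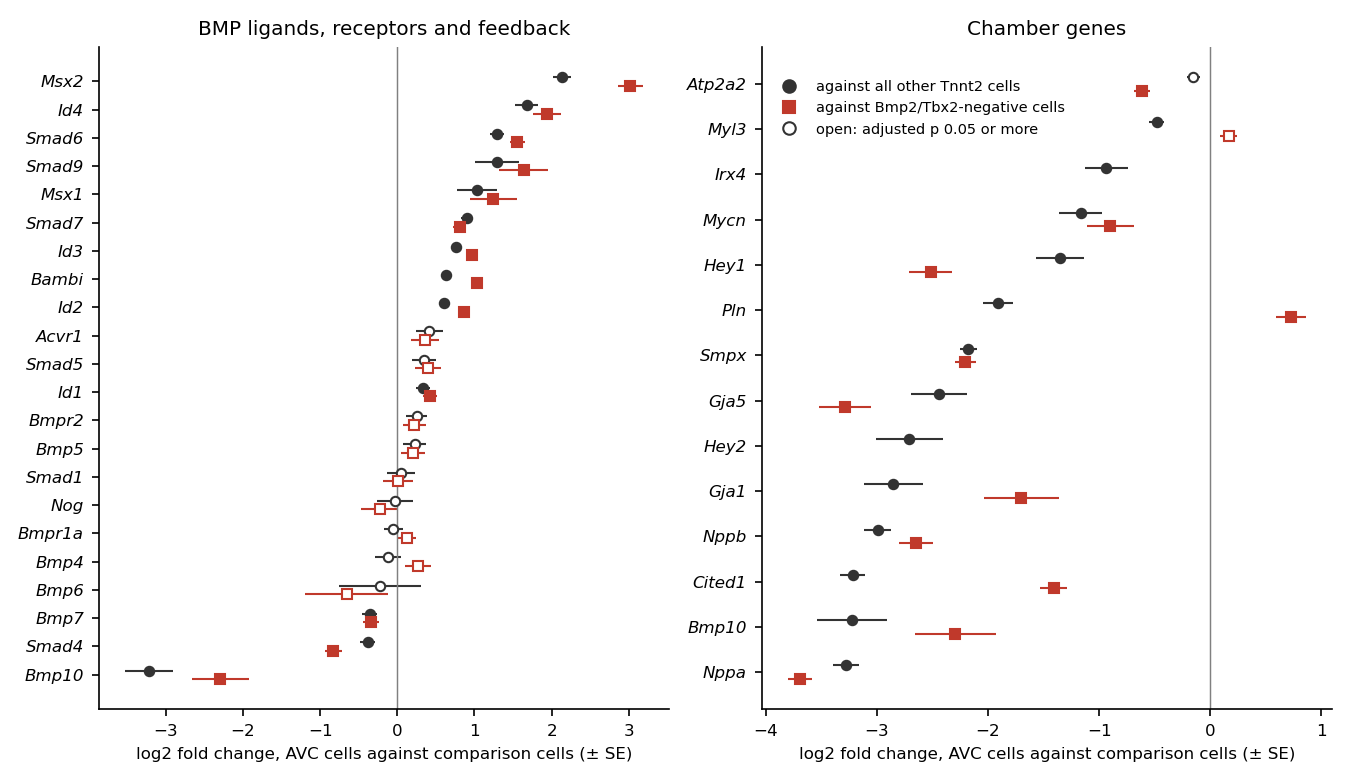
Log2 fold change ± SE of each tested gene of the BMP list (left) and the chamber list (right), for AVC cells against all other Tnnt2 cells (circles) and against Bmp2/Tbx2-negative cells (squares), with open symbols where the adjusted p was 0.05 or more. Of 22 BMP genes 10 lay above 0 with a call in each comparison, and of 14 chamber genes 13 lay below 0 with a call against all other Tnnt2 cells.

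Chamber genes known to be repressed by TBX2 and TBX3 were low beside other Tnnt2 cells. Of 14 tested, 13 were lower than in other Tnnt2 cells with a median log2 fold change of -2.31, and 1, the calcium pump gene Atp2a2, did not pass with -0.15 ± 0.06 (adjusted p = 0.078), but passed without Wt1 or without Ho1. Nppa was at 180.3, 171, 294 and 259.7 CPM in AVC cells and 1258, 2963, 2349 and 1760.3 CPM in other Tnnt2 cells, a log2 fold change of -3.28 ± 0.12 (adjusted p = 2.30e-18). Nppb, the second natriuretic peptide gene, was at 33.4, 45.9, 28.6 and 17.3 CPM against 107, 266, 237 and 195 CPM. No AVC sum of either gene reached the lowest sum of the other cells.

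Connexin genes of the working chambers moved the same way. Gja5, the connexin 40 gene, had 0, 4.91, 3.58 and 3.80 CPM in AVC cells, 17.3, 22.8, 19.2 and 15 CPM in other Tnnt2 cells and 35.7, 33.4, 34.1 and 32.6 CPM in Bmp2/Tbx2-negative cells. Its log2 fold change was -2.44 ± 0.25 in the first comparison and -3.29 ± 0.24 in the second. Gja1, the connexin 43 gene, was lower by -2.85 ± 0.27 and -1.70 ± 0.33. Smpx, which encodes a small muscle protein, fell from a range of 358 to 521 CPM in other Tnnt2 cells to a range of 101 to 127 CPM. Hey1, Hey2, Cited1, Mycn, Irx4, Myl3, Bmp10 and Pln completed the 13 lower genes.

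Against Bmp2/Tbx2-negative cells 10 of 12 tested chamber genes were lower and 1 was higher, with a median of -1.95, or 10 and 2 of 14 without Wt1. The higher one was Pln, the phospholamban gene, an inhibitor of the calcium pump, at 91.3, 109.7, 38.4 and 64.0 CPM in AVC cells, 36.9, 48.8, 29.8 and 43.1 CPM in Bmp2/Tbx2-negative cells and 182, 256, 265 and 233 CPM in other Tnnt2 cells, and AVC sums overlapped with the Bmp2/Tbx2-negative ones. Its direction thus differed between the comparisons, with log2 fold changes of -1.91 ± 0.14 and 0.73 ± 0.14 (adjusted p = 7.57e-04). With Isl1 at 0 UMIs the second was 0.12 (adjusted p = 0.642) and no longer called. Myl3, a ventricular myosin light chain gene, was called lower in the first comparison, with -0.48 ± 0.07 (adjusted p = 3.51e-06), and not in the second, and Atp2a2 in the second and not in the first. Against the Sema3c cells described further on, 3 of 9 tested chamber genes were lower (Hey1, Myl3 and Pln) and 1 higher (Atp2a2), with a median of -0.46.

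Among 24 tested cardiac transcription factor genes 8 were higher and 8 lower than in other Tnnt2 cells, with a median log2 fold change of 0.0074. The higher ones were Tbx3, Tbx5, Tbx20, Gata4, Gata5, Gata6, Hand2 and Zfpm1, of which Gata4 lost its call without Ho1. Tbx20, a T-box factor of the cardiac core network, was at 214, 151, 190.2 and 246 CPM against 83.7, 86.2, 86.0 and 100 CPM, a log2 fold change of 1.04 ± 0.08 (adjusted p = 4.68e-11). Tbx5, which is graded from the inflow to the outflow of the heart, was at 64.6, 63.1, 76.7 and 93.3 CPM against 36.6, 38.2, 38.5 and 48.9 CPM, and the ranges of both genes did not overlap. The Iroquois genes Irx1, Irx2, Irx3 and Irx4, together with Tbx18, Meis1, Meis2 and Nr2f1, were the 8 lower ones, with Irx1 at 0, 1.64, 0 and 0.542 CPM in AVC cells and 5.18, 6.44, 8.05 and 9.01 CPM in other Tnnt2 cells. Irx4, a ventricular factor, was at 2.23, 6.55, 15.3 and 25.5 CPM in AVC cells, so that Ho2 reached the range of the other cells, 18.6, 24.8, 28.5 and 29.5 CPM.

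Of 14 tested conduction and ion channel genes 7 were higher and 2 lower than in other Tnnt2 cells, and 9 of 13 were higher and 1 lower than in Bmp2/Tbx2-negative cells. Cacna2d2, an auxiliary subunit of calcium channels, was at 160.3, 113, 181 and 163 CPM in AVC cells and 64.8, 50.7, 79.4 and 83.4 CPM in other Tnnt2 cells, a log2 fold change of 1.03 ± 0.08 (adjusted p = 4.11e-11). Outside the list Adora1, the adenosine A1 receptor gene, stood at 33.4, 19.7, 29.7 and 26.0 CPM against 8.35, 6.95, 7.59 and 7.99 CPM. Kcnj5, a subunit of the acetylcholine-gated potassium channel, rose by 0.84 ± 0.12, Kcne1, a potassium channel subunit, by 0.74 ± 0.10, and Cpne5, a calcium-dependent phospholipid-binding protein gene, by 1.21 ± 0.09. Each AVC sum of these 5 genes, which were named from among the called ones, lay above each sum of other Tnnt2 cells. The share of all genes without overlap is not given here.

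Hcn4, a pacemaker channel gene, was not among the raised genes. Other Tnnt2 cells include the Shox2 cells described further on, where Hcn4 was higher than in AVC cells. Against Bmp2/Tbx2-negative cells and the later Sema3c cells Hcn4 was not called in either direction. Hcn4 was at 4.45, 9.83, 11.8 and 12.5 CPM in AVC cells and 28.9, 22.0, 19.5 and 32.2 CPM in other Tnnt2 cells, a log2 fold change of -1.30 ± 0.18 (adjusted p = 5.67e-06). The connexin 45 gene Gjc1, a low-conductance connexin, was at 100.2, 106, 86.9 and 78.1 CPM against 76.3, 73.6, 65.3 and 69.2 CPM and passed with a small change of 0.27 ± 0.08 (adjusted p = 0.0309), which was lost without any one of Wt1, Wt2 or Ho1 and with Isl1 at 0 UMIs. The calcium release channel Ryr2 was lower by -0.41 ± 0.08.

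Of 22 tested signals and matrix genes of the cushions 13 were higher and 2 lower than in Bmp2/Tbx2-negative cells, or 11 and 1 without Wt2, with a median of 0.68, and 6 of 25 were higher and 4 lower than in all other Tnnt2 cells, with a median of 0.27. The list ran the other way against the Sema3c cells described further on, with 3 of 18 higher, 8 lower and a median of -0.31. Rspo3 (chr10:29452416-29535867), a secreted enhancer of Wnt signalling, was at 249, 273, 443 and 472 CPM in AVC cells, 76.6, 60.4, 92.2 and 92.5 CPM in other Tnnt2 cells and 43.3, 19.0, 37.7 and 26.6 CPM in Bmp2/Tbx2-negative cells, with log2 fold changes of 2.08 ± 0.07 (adjusted p = 7.32e-19) and 3.51 ± 0.14 (adjusted p = 3.26e-12). Tgfb2, a ligand that drives endocardial cells into the cushions, was at 80.1, 80.3, 121 and 129 CPM against 51.2, 40.9, 48.1 and 58.4 CPM. Has2, the hyaluronan synthase of the cushion jelly, was at 15.6, 17.2, 22.5 and 19.0 CPM against 7.28, 5.76, 8.45 and 6.56 CPM, a log2 fold change of 1.35 ± 0.18 (adjusted p = 2.80e-06). None of these 3 genes, named from among the called ones, overlapped with the other Tnnt2 cells. Vcan, the versican gene, changed direction between the comparisons, with -0.53 ± 0.07 against all other Tnnt2 cells and 0.66 ± 0.08 against Bmp2/Tbx2-negative cells.

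Markers of endocardial cells were looked at beside these genes. Of 9 tested endothelial and endocardial markers 2, Kdr and Tek, were higher than in other Tnnt2 cells and 0 were lower, and Kdr was at 24.5, 49.1, 32.7 and 35.8 CPM against 20.3, 15.8, 16.8 and 15.8 CPM. The 10 markers summed to 55.6, 185, 142 and 147 CPM in AVC cells and 102, 99.8, 122 and 78.1 CPM in other Tnnt2 cells, with Egfl7 the most abundant, and none was at 0 in all 4 libraries. Without Wt2 or Ho2 1 of 9 was higher, and without Ho1 1 of 10. Pecam1 and Cdh5 had no UMI in any of the 30 members of Wt1. In Wt2, Ho1 and Ho2 Cdh5 was found in 5, 9.52 and 3.41% of members, against 4.42, 8.98 and 2.51% of other Tnnt2 cells. Pecam1 was found there in 6.67, 7.62 and 6.82% of members, against 5.21, 7.70 and 3.21%. Of 10 cushion mesenchyme markers tested 1 was higher (Hapln1) and 1 lower (Prrx2), or 1 and 2 without Wt2, 2 and 0 without Ho1 and 0 and 0 without Ho2. Those markers summed to 296, 393, 227 and 223 CPM in AVC cells, with Prrx2 the most abundant and none at 0 in all 4 libraries. Of 4 tested epithelial markers 2 were higher and 0 lower, or 0 higher without Wt2 and 1 without Wt1 or Ho2, with sums of 154, 151, 84.9 and 156 CPM in AVC cells against 122, 90.2, 72.1 and 121 CPM, Krt18 the most abundant and none at 0 in all 4 libraries. The part of such RNA in the cushion genes was not tested.

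The genes with the largest rise outside the lists were Rsph9, a radial spoke protein gene of motile cilia, Prrx1, a homeobox gene of mesenchyme, and Perp, a desmosomal membrane protein gene. Perp was at 127, 113, 161 and 153 CPM in AVC cells, 26.2, 33.3, 37.2 and 29.5 CPM in other Tnnt2 cells and 17.4, 18.7, 24.9 and 20.2 CPM in Bmp2/Tbx2-negative cells, a log2 fold change of 2.03 ± 0.10 (adjusted p = 1.02e-15) in the first comparison. Rsph9 rose by 2.36 ± 0.18 and Prrx1 by 2.35 ± 0.19. Pnmt, the enzyme that makes adrenaline, was at 95.7, 57.3, 50.6 and 64.5 CPM against 12.8, 9.54, 8 and 11.6 CPM in Bmp2/Tbx2-negative cells, a log2 fold change of 2.54 ± 0.13 (adjusted p = 1.03e-10). No AVC sum of Perp or Pnmt overlapped with the compared cells.

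Other genes fell. Mest, an imprinted gene, was at 53.4, 176, 99.7 and 139 CPM in AVC cells and 592, 973, 975 and 847 CPM in other Tnnt2 cells, a log2 fold change of -2.95 ± 0.09 (adjusted p = 9.21e-20). Angpt1, a ligand of the receptor TEK and a member of the atrial list, was lower by -2.51 ± 0.15 and -3.03 ± 0.15 in the 2 comparisons, Dsc2, a desmosomal cadherin gene, by -2.41 ± 0.24 and -3.18 ± 0.22, and Abcc9, a subunit of the ATP-sensitive potassium channel, by -2.34 ± 0.20 in the first. Hba-x, an embryonic globin gene, had a fold change of -3.69 ± 0.29 on the log2 scale, but it was at 1.16, 1.77, 96.4 and 3.54 CPM in other Tnnt2 cells and lost its call without Ho1. All 5 tested blood markers were lower in AVC cells and none without Ho1 (edgeR). In AVC cells the 7 markers summed to 4.45, 18.8, 19.9 and 5.42 CPM, against 4.54, 8.57, 228 and 13.8 CPM in other Tnnt2 cells.

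Contractile genes went both ways. Of 31 tested sarcomere genes 6 were higher and 12 lower than in other Tnnt2 cells. Myl7, the atrial myosin light chain gene, rose by 0.49 ± 0.04 and Myh6, the alpha myosin heavy chain gene, by 0.40 ± 0.05 on the log2 scale, as did Tnni3, the adult-type troponin I gene, by 0.45 ± 0.06. Against Bmp2/Tbx2-negative cells Myh6 was lower by -0.28 ± 0.05, so its direction depended on the cells compared, and this call was lost with Isl1 at 0 UMIs, where the change was -0.046 (adjusted p = 0.465). In that comparison 7 of 30 sarcomere genes were higher and 7 lower, or 4 and 14 without Wt1. Of 13 atrial genes 3 were higher and 7 lower than in other Tnnt2 cells, and of 9 ventricular genes 1 was higher and 7 lower, with a median of -0.93. Against Bmp2/Tbx2-negative cells, which share the Myl2 limit, 2 of 13 atrial genes were higher and 8 lower, while 4 of 7 ventricular genes were higher and 1 lower, with a median of 0.73, so the direction of the ventricular list turned with the cells compared.

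S phase genes stood lower in AVC cells than in other Tnnt2 cells and in Bmp2/Tbx2-negative cells. Of 22 S phase genes 16 were lower and 0 higher than in other Tnnt2 cells, with a median of -0.46, and 11 were lower and 0 higher than in Bmp2/Tbx2-negative cells. Of 25 G2/M genes 6 were lower in the first comparison and 2 in the second, with 0 higher in both, and the second count is no more than the share of all genes called lower there. Pcna, the sliding clamp of DNA replication, was at 97.9, 79.4, 79.8 and 81.9 CPM against 103, 105, 105 and 113 CPM, a log2 fold change of -0.48 ± 0.08 (adjusted p = 8.10e-05). Ccnd2, a D-type cyclin gene, was at 86.8, 113, 89.5 and 128 CPM against 285, 275, 321 and 357 CPM, a log2 fold change of -1.67 ± 0.08 (adjusted p = 5.22e-16), and Cdkn1a, the CDK inhibitor p21, at 80.1, 36.8, 78.8 and 65.1 CPM against 31.0, 31.8, 27.7 and 24.2 CPM, a log2 fold change of 1.09 ± 0.14 (adjusted p = 1.65e-06). The 2 regulators thus moved in opposite directions and neither overlapped with the other cells. Without Ho1 or without Ho2, 4 S phase genes were lower in the second comparison and 3 G2/M genes in the first. Against the Shox2 cells described further on, 1 of 22 S phase genes was lower and 0 higher, with a median of -0.15. Of 25 G2/M genes 1 was lower and 0 higher there, with a median of 0.07. Of all genes 5.75% were called lower in that comparison.

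The count of called cholesterol synthesis genes depended on the cells compared. Of 26 tested, 1 was higher (Fdft1, squalene synthase, 0.39 ± 0.09 (adjusted p = 0.0019)) and 1 lower (Fdps, farnesyl diphosphate synthase, -0.26 ± 0.06 (adjusted p = 0.00285)) than in other Tnnt2 cells. Cyp51 itself was at 93.5, 88.4, 62.4 and 71.0 CPM in AVC cells and 68.2, 62.7, 59.7 and 71.6 CPM in other Tnnt2 cells, with a log2 difference of 0.10 ± 0.10 (adjusted p = 0.562). Against Bmp2/Tbx2-negative cells 6 of 26 were lower and 0 higher, or 2 and 1 without Ho2, and Fdft1 lost its call without Ho1. Of 13 hedgehog pathway genes tested, from a list of 19, 0 passed against other Tnnt2 cells with edgeR, with 0 at an unadjusted p under 0.05 and 0 with DESeq2. Of 15 immediate early and heat shock genes 2 were higher (Jun and Jund) and 5 lower, or 1 and 4 without Wt1, 1 and 2 without Ho1 and 1 and 3 without Ho2. Of 12 Notch pathway genes 2 were higher, among them Jag2, and 3 lower, namely Jag1, Hey1 and Hey2, and without any one of Wt2, Ho1 or Ho2 1 was higher.

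AVC cells were also compared with cells of the same Myl2 limit that had a Shox2 UMI (1744 cells) and with cells of that limit that had no Shox2 and at least 2 UMIs of Sema3c (245 cells). Shox2 encodes a factor of pacemaker muscle and Sema3c a guidance signal of the outflow tract. Against Shox2 cells 1518 of 10725 genes passed (14.2%), 901 higher (8.4%) and 617 lower (5.75%) in AVC cells. Against Sema3c cells 1283 of 8114 passed (15.8%), 622 higher (7.67%) and 661 lower (8.15%). Without Ho2 the calls fell to 846 and 796, and without Ho1 those against Sema3c cells fell to 826.

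Against Shox2 cells 8 of 13 tested conduction and ion channel genes were higher in AVC cells and 3 lower, namely Hcn4, Cacna1d and Ryr2. Hcn4 was at 86.2, 65.3, 55.4 and 87.7 CPM in Shox2 cells, above every AVC sum, a log2 fold change of -2.68 ± 0.17 (adjusted p = 2.36e-09) in AVC cells. Vsnl1, a calcium sensor gene of the sinus node, was at 44.5, 57.3, 59.8 and 35.2 CPM in AVC cells and 497, 519, 434 and 513 CPM in Shox2 cells, and Tbx18, a factor of the sinus horns, was lower by -3.13 ± 0.31. Smoc2, a secreted matrix protein gene, had no UMI in the AVC sums of all 4 libraries and 53.6, 37.9, 32.4 and 101 CPM in Shox2 cells, at least 111-fold lower when 3 counts over the 4 AVC sums are taken as the limit. Sln, the atrial calcium pump inhibitor sarcolipin, fell by -3.28 ± 0.31, and Nr2f1 and Nr2f2, factors of atrial identity, were lower by -1.48 ± 0.11 and -1.35 ± 0.13.

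Against Shox2 cells the BMP list again had 10 of 21 genes higher and 3 lower, Acvr1 and Bmp5 among the higher and Bmp4 among the lower ones. Without Wt2 the counts were 9 and 1, without Ho1 6 and 1, and without Ho2 5 and 0. Msx2 was higher by 2.88 ± 0.15, Rspo3 by 2.73 ± 0.10, Perp by 3.69 ± 0.16 and Tbx3 by 1.40 ± 0.18 on the log2 scale. Tbx3, which marks both the AVC and the sinus node, was at 18.2, 19.4, 17.8 and 27.4 CPM in Shox2 cells and thus still below each AVC sum. Of 7 ventricular genes 5 were higher, among them Myh7, the beta myosin heavy chain gene, by 2.26 ± 0.31 and Hand1, a factor of the left ventricle, by 2.55 ± 0.22. With Isl1 at 0 UMIs Myh7 was 0.80 higher and still called, and Hand1 had 0.94 (adjusted p = 0.0740) and was not. Mpped2 rose by 2.36 ± 0.12 and Cav3, the muscle caveolin gene, by 2.54 ± 0.24. Of 30 sarcomere genes 17 were higher and 4 lower, or 17 and 1 without Ho2, and of 12 chamber genes 2 were higher and 8 lower, or 2 and 5 without Ho2. Nppa did not pass, with -0.52 ± 0.20 (adjusted p = 0.0896). Of 26 cholesterol genes 8 were lower and 0 higher in AVC cells, or 3 lower without Ho1 and 4 without Ho2, and Cyp51 did not pass with -0.27 ± 0.10 (adjusted p = 0.0978).

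Several genes were higher in AVC cells than in Sema3c cells. Of these, Tbx5, Cacna2d2, Adora1, Kcnj5, Tbx3 and Msx2 were also raised against other Tnnt2 cells. Wnt2 was not called against other Tnnt2 cells and was called lower in AVC cells than in Shox2 cells. Tbx5 was at 64.6, 63.1, 76.7 and 93.3 CPM in AVC cells and 8.78, 8.61, 8.95 and 6.24 CPM in Sema3c cells, a log2 fold change of 3.23 ± 0.20 (adjusted p = 1.17e-07) with no overlap. Cav1, the caveolin 1 gene, rose by 3.38 ± 0.33, Cacna2d2 by 3.15 ± 0.15, Wnt2, a Wnt ligand of the inflow region, by 2.89 ± 0.18, Adora1 by 2.89 ± 0.32 and Kcnj5 by 2.62 ± 0.21. Tbx3 was higher by 1.87 ± 0.18 and Msx2 by 0.58 ± 0.13, while Rspo3 did not pass with -0.28 ± 0.11 (adjusted p = 0.119). The call of Msx2 was lost with DESeq2 (adjusted p = 0.167).

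Other genes were lower in AVC cells than in Sema3c cells, and those that vary with Sema3c from cell to cell are not independent of the limit that separated the 2 classes. Isl1, a factor of second heart field progenitors, was at 53.4, 66.3, 2.56 and 23.3 CPM in AVC cells and 174, 249.6, 141 and 247 CPM in Sema3c cells, a log2 fold change of -2.85 ± 0.31 (adjusted p = 1.89e-05). Bmp4 (chr14:46383520-46390669), a BMP ligand of the outflow tract, was at 145, 149.9, 27.6 and 59.6 CPM against 422, 546, 438 and 437 CPM, a change of -2.55 ± 0.25 (adjusted p = 5.94e-06). Nrp2, a semaphorin receptor gene, fell by -3.00 ± 0.35, Tnc, a matrix glycoprotein gene, by -2.57 ± 0.23, Itm2a by -2.61 ± 0.39 and the Notch ligand gene Jag1 by -1.90 ± 0.15. The call of Nrp2 was lost with DESeq2 (adjusted p = 0.122). BMP targets did not share a direction here, with 3 of 20 genes of the list higher and 4 lower, Id1 among the lower ones with -1.40 ± 0.10, or 3 and 2 of 19 without Ho2. Mitotic genes were higher in AVC cells, with 20 of 25 G2/M genes and 7 of 21 S phase genes called higher and 0 lower, for example Mki67 with 1.17 ± 0.20 (adjusted p = 9.86e-04). Without Wt2 or without Ho2 13 of the G2/M genes were higher, and without Wt2 4 and without Ho1 3 of the S phase genes. DESeq2 called 8 of the G2/M genes and 2 of the S phase genes higher. Cyp51 was lower, with -0.53 ± 0.13 (adjusted p = 0.0102), a call lost without any one of Wt2, Ho1 or Ho2.

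The share of AVC cells was higher in each Ho library than in each Wt library as counted. AVC cells made up 1.91% (95% exact interval 1.29 to 2.71), 2.46% (1.88 to 3.16), 3.09% (2.53 to 3.72) and 3.73% (3.00 to 4.57) of the cells past the Tnnt2 limit. The Wt mean was 2.18% ± 0.392 and the Ho mean 3.41% ± 0.452 (SD, n = 2 each), a difference of 1.22 points, with an exact two-sided permutation p of 0.333, the smallest that 2 against 2 libraries allow. With each cell thinned to 2000 UMIs the shares were 0.243, 0.160, 0.261 and 0.755% from 4, 4, 9 and 18 cells, with no cell left out for depth, so that Ho1 lay beside Wt1. Intervals cover counting error only.

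The limits that chose the cells were themselves met at unequal levels. Bmp2 in all Tnnt2 cells was at 19.6, 18.9, 28.6 and 40.0 CPM, and in cells of the same Myl2, Shox2 and Sema3c limits with a Tbx2 UMI at 68.5, 72.0, 150 and 177 CPM. Both were higher in each Ho library than in each Wt library. A Tbx2 UMI was found in 31.3, 35.3, 41.5 and 50.0% of such cells with a Bmp2 UMI and in 8.10, 9.84, 8.75 and 11% of those without, at median depths of 14426, 18688, 16844 and 19507 and of 14501, 19863, 20063 and 18870 UMIs. These values come from genes of the rule and describe the selection.

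**Figure D3:**
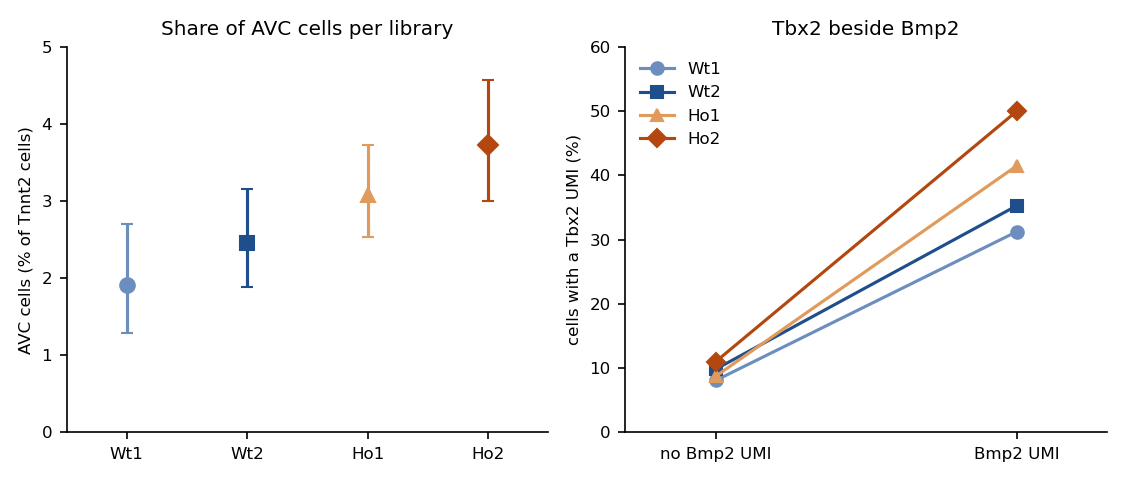
Left, AVC cells as a percentage of cells past the Tnnt2 limit, with exact 95% intervals of counting error. Right, percentage of Myl2-low, Shox2-negative cells within the Sema3c limit with a Tbx2 UMI among cells without and with a Bmp2 UMI, 1 line per library, rising from 8.10 to 11% without Bmp2 to 31.3 to 50.0% with Bmp2.

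Between the genotypes 36 of 9092 genes passed in AVC cells (0.396%), 7 higher (0.077%) and 29 lower (0.319%) in Ho, while 712 had an unadjusted p under 0.05. One of the 7 was Bmp2, a gene of the rule, whose call is part of the count and is no finding. DESeq2 called 10 of the same genes, 3 higher and 7 lower. Without Wt1, Wt2, Ho1 or Ho2 the calls were 76, 27, 78 and 99, of which 29, 11, 29 and 33 were among the 36, with the lone library of a genotype assumed to vary like the other pair. The calls thus changed with single libraries, and the fewest of the 36 were called without Wt2.

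Cyp51, the mutated gene (chr5:4081145-4104746, GRCm38), was at 93.5, 88.4, 62.4 and 71.0 CPM in AVC cells, with both Ho values under both Wt values. The log2 fold change of -0.42 ± 0.19 (adjusted p = 0.572) did not pass the test. In other Tnnt2 cells the libraries overlapped, at 68.2, 62.7, 59.7 and 71.6 CPM. A count of Cyp51 transcripts does not show the changed residue. None of 24 tested cholesterol synthesis genes passed with edgeR or with DESeq2, 1 had an unadjusted p under 0.05, and their median log2 fold change was 0.01. Of 19 listed hedgehog genes only 5 had enough counts to be tested. None of the 5 passed with either tool, with 0 at an unadjusted p under 0.05. The whole list summed to 105, 86.0, 69.6 and 98.1 CPM in AVC cells, so the result does not cover the untested genes.

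Gal, the gene of the neuropeptide galanin (chr19:3409915-3414544), had the largest rise. It was at 6.68, 18.0, 168 and 153 CPM in AVC cells and 20.4, 18.9, 37.2 and 24.9 CPM in other Tnnt2 cells. Both Ho values in AVC cells lay above every other value of the gene in these classes, with a log2 fold change of 3.47 ± 0.26 (adjusted p = 1.29e-08). A Gal UMI was found in 10, 11.7, 25.7 and 30.7% of members and in 0.0886, 0.304, 1.41 and 1.15% of endothelial cells. The call held under each alternative that gave a value, and a minimum of 10 counts in every sum left the gene untested.

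The other genes called higher in Ho were few. Members had medians of 2, 2, 3 and 5 UMIs of Bmp2, so the limits were met at unequal levels in the 2 genotypes. Genes that vary with Bmp2 or Tbx2 from cell to cell, such as Tbx3, Msx2 and Rspo3, are therefore not independent of the selection here. The part of the selection in their genotype values was not tested. Tbx3 was at 33.4, 33.6, 77.7 and 61.3 CPM, a log2 fold change of 1.08 ± 0.24 (adjusted p = 0.0401) between the genotypes, which was lost without Wt2 or without Ho1. Rspo3 was at 249, 273, 443 and 472 CPM, with 0.81 ± 0.16 (adjusted p = 0.0195), lost without Wt1 or Wt2. Igfbp5, an IGF-binding protein gene, was at 347, 401, 674 and 696 CPM, with 0.87 ± 0.16 (adjusted p = 0.00932), lost without Wt1 or Wt2. Msx2, at 46.7, 62.2, 91.5 and 83.0 CPM, separated the genotypes in the same direction but did not pass with 0.63 ± 0.20 (adjusted p = 0.288). Mt1, a metallothionein gene, and Rps27rt, which is nearly identical to Rps27 so that reads may be split between them, made up the rest of the 7 higher genes with Bmp2, and both lost their call without Wt2, Mt1 also without Wt1. Igfbp5, Mt1 and Rps27rt lay outside the naming rule and were picked after their values were seen.

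Among the 29 genes lower in Ho, Bmp4 was at 145, 149.9, 27.6 and 59.6 CPM, a log2 fold change of -1.76 ± 0.23 (adjusted p = 2.13e-04). Isl1 was at 53.4, 66.3, 2.56 and 23.3 CPM, with -2.26 ± 0.41 (adjusted p = 0.00686), and Dlk1, a non-canonical Notch ligand gene, at 97.9, 80.3, 2.05 and 24.4 CPM, with -2.72 ± 0.40 (adjusted p = 6.98e-04). In each of the 3 genes both Wt values lay above both Ho values and Ho1 was the lowest.

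Of 21 tested signals and matrix genes of the cushions 1 was higher (Rspo3) and 1 lower (Cthrc1) in Ho, with a median of 0.03, or 0 and 1 without Wt1 or Wt2 and 1 and 2 without Ho2. Outside that list the elastic fibre genes Mfap4 and Eln had changes of -3.38 ± 0.54 and -2.88 ± 0.58, and the collagen gene Col1a2 of -2.59 ± 0.38, and Cthrc1, a secreted protein gene of the list, of -1.82 ± 0.25. Cxcl12, a chemokine gene, was at 64.6, 106, 8.18 and 27.1 CPM, and Tcf21, an epicardial and pharyngeal factor, at 8.90, 74.5, 2.56 and 11.9 CPM, where 1 library, Wt2, stood far above the rest. Without Wt2 the calls of Mfap4, Col1a2 and Tcf21 were lost, and without Wt1 that of Eln. The contractile genes Tnnt1 and Tagln and the chamber gene Pln had changes of -1.06 ± 0.22, -0.76 ± 0.17 and -1.0 ± 0.21, of which the first was lost without Wt1, the second without Wt1 or Wt2 and the third without Wt2 or Ho1. Myh7 was at 1153, 941, 102 and 621 CPM and did not pass with -1.55 ± 0.38 (adjusted p = 0.073), but passed without any one of the 4 libraries.

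Cthrc1 and Tcf21 are themselves in the marker lists of other cell types, so the sums of those lists are not independent of their calls. Cushion mesenchyme markers summed to 296, 393, 227 and 223 CPM and epicardial markers to 11.1, 138, 7.16 and 36.3 CPM, with Tcf21 the most abundant epicardial gene and no marker of either list at 0 in all 4 libraries. Of 7 tested mesenchyme markers 1 (Cthrc1) and of 2 tested epicardial markers 1 (Tcf21) were lower in Ho. Without Wt1, Ho1 or Ho2 the lower mesenchyme markers were 3 of 9, 3 of 8 and 2 of 8, and the lower epicardial markers 2 of 5, 2 of 3 and 2 of 3, while without Wt2 no epicardial marker of 3 was lower (edgeR). Macrophage markers reached at most 9.83 CPM, in Wt2, with Tyrobp and Cx3cr1 at 0 throughout. The part of such RNA in the genotype difference was not tested.

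**Figure D4:**
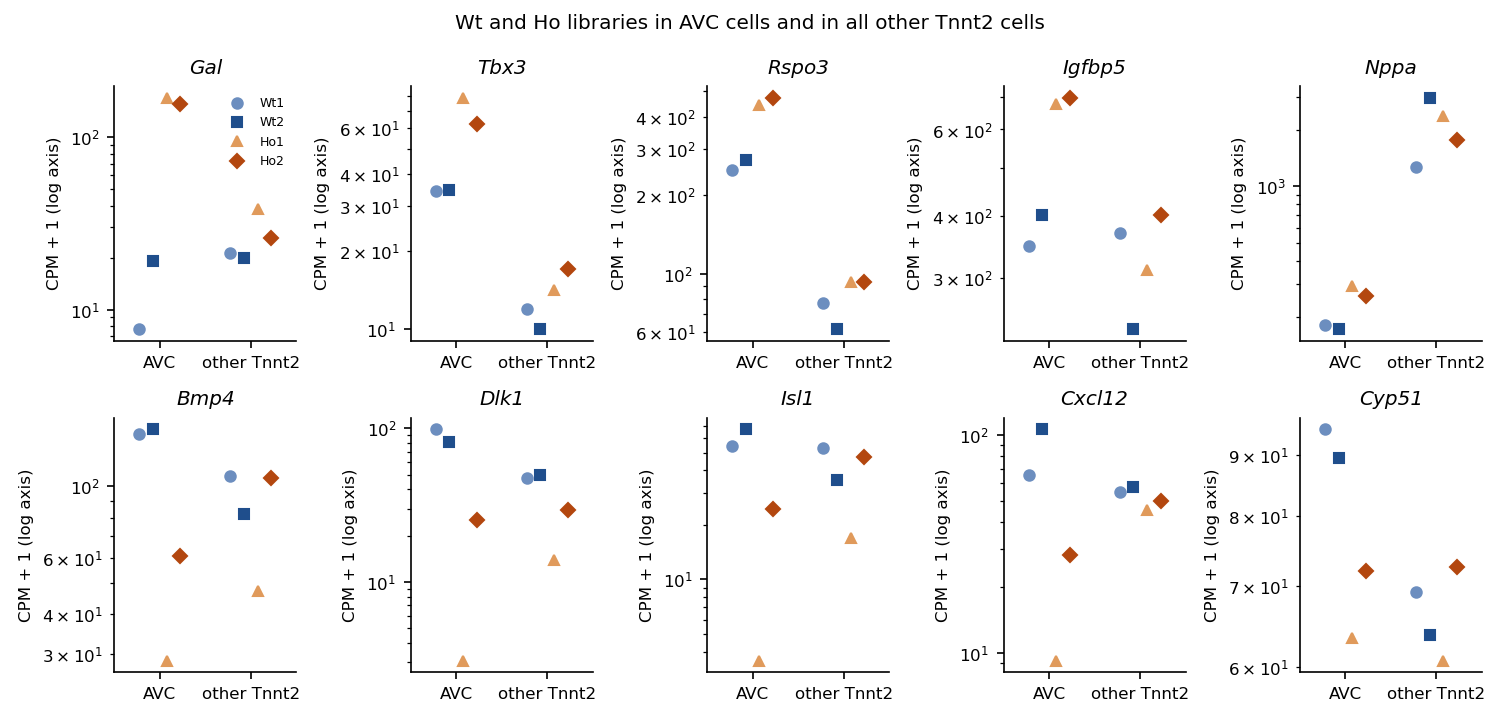
Levels of 10 genes in AVC cells and in all other Tnnt2 cells, 1 point per library on a log axis of CPM + 1. In AVC cells Gal stood at 6.68 and 18.0 CPM in Wt and at 168 and 153 CPM in Ho, and Bmp4, Dlk1, Isl1 and Cxcl12 were lower in each Ho library than in each Wt library.

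Cells with an Isl1 UMI were unevenly spread over the libraries. They numbered 6 of 30, 21 of 60, 5 of 105 and 15 of 88 members, 20, 35, 4.76 and 17.0%, beside 18.2, 18.9, 9.12 and 18.3% of endothelial cells and 28.2, 20.6, 12.7 and 25.5% of other Tnnt2 cells. Only in Wt1 and Wt2 did the members exceed the endothelial cells. Whether 1 UMI of Isl1 in a member or in an endothelial cell reflects expression was not tested. The split by Isl1 was made after values were seen. Levels in members with and without an Isl1 UMI are set side by side as a description with no test. Members without an Isl1 UMI were also tested on their own, between the genotypes and against the other cell classes. Those tests are alternatives chosen after seeing the data.

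In Wt1, Wt2 and Ho2 the members with an Isl1 UMI differed from the rest in several genes. Their Bmp4 was at 363, 357 and 215 CPM against 82.8, 22.5 and 24.6 CPM in members without Isl1, in the order Wt1, Wt2 and Ho2. Itm2a was at 1161, 1242 and 988 CPM against 246, 87.2 and 93.1 CPM, and Myh7 at 2625, 2307 and 2561 CPM against 737, 102 and 183 CPM. Levels of Itm2a and Myh7 in Sema3c cells were 1445, 1700.5, 2454 and 1279 CPM and 2573, 3575, 3838 and 3786 CPM, so in these 3 libraries the members with Isl1 lay nearer to those cells than the members without. Tbx5 ran the other way, at 10.1, 21.5 and 26.5 CPM with Isl1 and 80.0, 88.6 and 108 CPM without. The 5 such cells of Ho1 followed in Bmp4, at 134 CPM against 21.2 CPM, and in Tbx5, at 53.5 CPM against 78.1 CPM, but not in Itm2a, at 8.91 CPM against 69.4 CPM, or in Myh7, at 89.1 CPM against 103 CPM.

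AVC genes were found in members without and with an Isl1 UMI. Tbx3 was at 42.8, 48.9, 78.7 and 62.5 CPM, Msx2 at 51.4, 83.3, 94.4 and 83.8 CPM and Rspo3 at 226, 305, 443 and 455 CPM in the summed members without an Isl1 UMI. In those with one, Tbx3 was at 0, 8.61, 62.4 and 55.9 CPM, Msx2 at 30.3, 28.0, 44.5 and 79.4 CPM and Rspo3 at 333, 219, 445 and 547 CPM, where 3 UMIs would be 30.3 CPM in Wt1. Msx2 and Tbx3 were thus lower with Isl1 in each library, by little in Ho2, and Rspo3 was lower in Wt2 alone. When the members without Isl1 alone were compared between the genotypes, an alternative chosen after seeing the data, 6 genes passed. Isl1 itself was called lower in Ho among all members. Of the 36 genes called there, 26 were tested in this alternative, and Dlk1, Isl1, Mfap4, Eln and Col1a2 were not. Gal remained higher with 2.84 ± 0.30 (adjusted p = 1.69e-07), and Nppa was called higher with 1.16 ± 0.23 (adjusted p = 0.0142). The histone genes Hist1h1b, Hist1h1e and Hist1h2ap and the gene model Gm47283 were called lower, as they were among all members. Hist1h1b had -1.38 ± 0.19 here and -1.12 ± 0.19 among all members. All 6 genes lay outside the naming rule save Gal and the listed Nppa. Tbx3 had 0.61 ± 0.24 (adjusted p = 0.703), Rspo3 0.73 ± 0.17 (adjusted p = 0.113), Igfbp5 0.66 ± 0.16 (adjusted p = 0.135) and Bmp4 -0.93 ± 0.36 (adjusted p = 0.698), none of which passed. Cxcl12 had -1.04 ± 0.51 (adjusted p = 0.821), Cthrc1 -0.54 ± 0.36 (adjusted p = 0.898), Tnnt1 -0.29 ± 0.28 (adjusted p = 0.951), Pln -0.18 ± 0.29 (adjusted p = 0.971) and Tagln -0.14 ± 0.20 (adjusted p = 0.971), also without a call. The alternative also left fewer cells, 24, 39, 100 and 73.

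**Figure D5:**
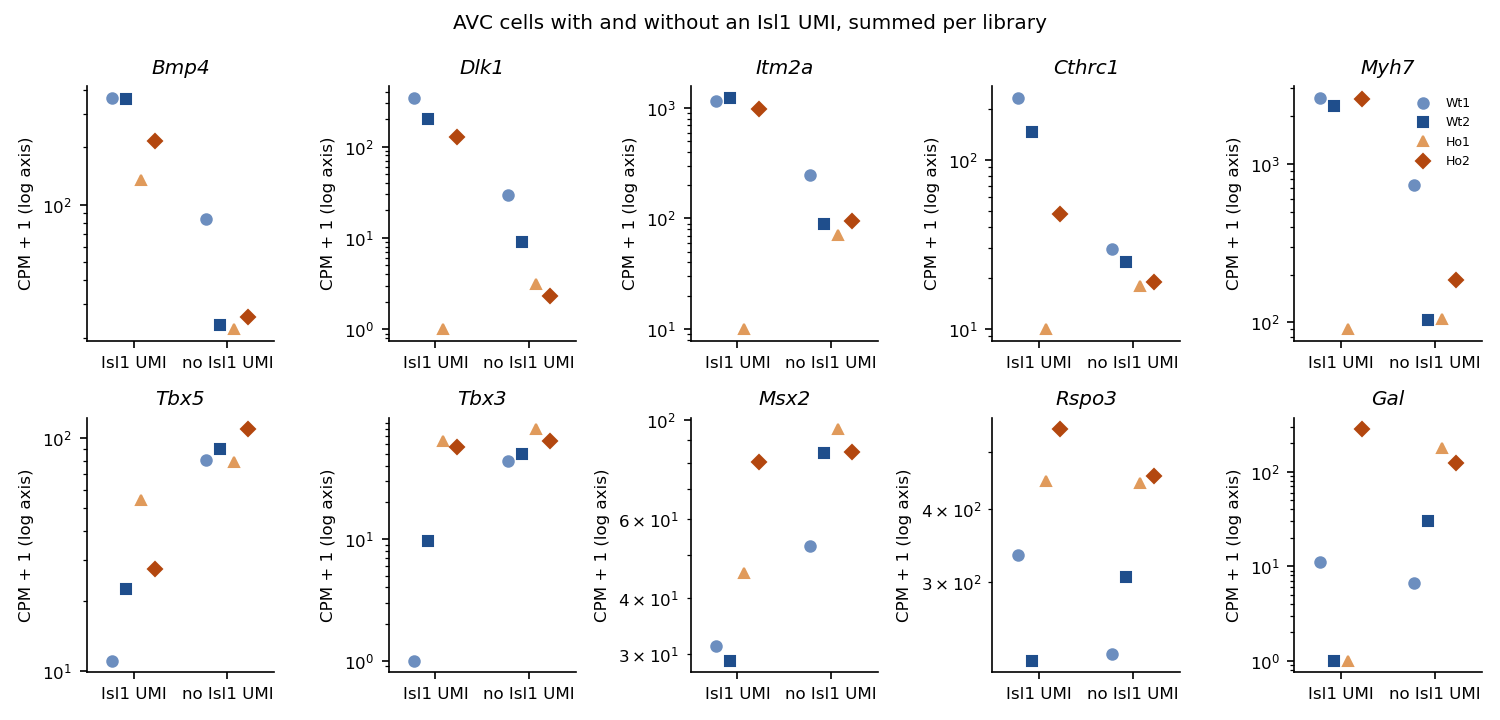
Levels of 10 genes in AVC cells with and without an Isl1 UMI, summed per library, on a log axis of CPM + 1. In Wt1, Wt2 and Ho2 Bmp4, Dlk1, Itm2a, Cthrc1 and Myh7 were higher and Tbx5 lower in members with Isl1, while the 5 Isl1 members of Ho1 were higher in Bmp4 and not in Dlk1, Itm2a, Cthrc1 and Myh7, with no more than 1 UMI in each of Dlk1, Itm2a and Cthrc1.

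Of 20 tested genes of the BMP list 1, the ligand gene Bmp4, was lower and 0 were higher in Ho, with a median of 0.08 and 3 at an unadjusted p under 0.05. Of 10 tested chamber genes 1 was lower (Pln) and 0 higher, or 0 and 0 without Wt2 and 1 and 1 without Ho1 or Ho2, with Nppa at 180.3, 171, 294 and 259.7 CPM and 0.68 ± 0.17 (adjusted p = 0.0831). None of 13 conduction genes, 22 S phase genes and 25 G2/M genes passed with edgeR or DESeq2, with 2, 1 and 1 at an unadjusted p under 0.05.

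Whether the genotype effect in AVC cells differed from that in other Tnnt2 cells was tested as an interaction. Of 13564 genes 60 passed (0.442%), 9 higher (0.0664%) and 51 lower (0.376%) in AVC cells. Here edgeR gave all genes 1 common spread and the p-values are too small for genes whose libraries scatter. DESeq2 called 7 genes, Gal with a positive and Col1a2, Cxcl12, Tagln, Isl1, Bmp4 and Gpc3 with a negative difference, and without Ho1 edgeR called 19. The difference for Gal was 2.80 ± 0.27, for Bmp4 -1.50 ± 0.17 and for Cxcl12 -2.12 ± 0.23 on the log2 scale. With Isl1 at 0 UMIs 9 genes passed, and Bmp4 and Cxcl12, at -0.54 and -0.70, were not among them. The 10 genes with the largest differences by the naming rule, Epcam, Fgf8, Hba-a1, Nup62cl, Upk3b, Dcn, Pf4, Cpa1, Hbb-y and Car4, had at most 61 UMIs in any AVC sum, and 7 of them changed direction under at least 1 alternative. Their values are therefore not given.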

How the data were processed

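Single-cell counts of UMIs per gene were deposited by the authors, who made them with Cell Ranger 6.1.1 against mm10 (10x 3' v3.1 chemistry). Per their methods, cells were filtered in Seurat 4.1.0 and doublets removed with DoubletFinder afterwards, so the deposited counts hold all called barcodes (33589) and 32285 genes. Libraries held 109893733, 117034633, 127018819 and 107377100 UMIs, and precision followed the summed UMIs of each class. Groups came from the sample labels. Cells were chosen by the limits in the report, counts were summed per library and class, and sums were tested with edgeR 4.0.16 (R 4.3.3, TMM, filterByExpr, quasi-likelihood, library as covariate between classes). Pipelines were checked on simulated data. Members, gene lists and tests were chosen with earlier results of these data known. Named genes were those of the 22 lists, Cyp51 and, between classes, the 15 called genes per direction with the largest changes, 1 sign in all 4 libraries and at least 20 CPM in the higher class, or, for genotype and interaction, the 10 with the largest changes. Alternatives were DESeq2 1.42.0, other filters and normalization, left-out libraries, Scrublet (scanpy 1.11.5), stricter cell limits and replicate blocks. Promoters came from RefSeq (GRCm38.p6) and gene positions from GENCODE M21. Some genes are not reported here and were left out of the lists.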

Additional observations from a re-analysis of the deposited data

Results flagged for a closer look

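The genotype effect in AVC cells differed from that in other Tnnt2 cells by the interaction test of edgeR in 60 genes. Among the genes named in the report, the log2 difference (effect in AVC cells minus that in other Tnnt2 cells) was 2.80 for Gal, 0.81 for Nppa and 0.55 for Igfbp5, and it was -1.50 for Bmp4, -1.94 for Isl1, -1.10 for Pln, -1.94 for Myh7, -3.00 for Tcf21, -2.12 for Cxcl12, -2.35 for Col1a2 and -1.52 for Dlk1. In Gal both Ho sums of AVC cells were 153 CPM or more, while no sum of other Tnnt2 cells passed 37.2 CPM. In Tcf21 the difference rested on Wt2, at 74.5 CPM, and was -0.21 and no longer called without it. Isl1 and Col1a2 also lost the call without Wt2 (-1.37 and -1.31), Pln and Dlk1 without Ho1 (-0.70 and -1.05), and Igfbp5 without Wt1 or Ho1 (0.23 and 0.40), while Nppa changed sign without Wt2 (-0.10). Myh7 was at 102 CPM in Ho1 and 621 CPM in Ho2, a spread that the common estimate of edgeR does not carry. With Isl1 at 0 UMIs Bmp4 (-0.54), Pln (-0.26), Cxcl12 (-0.70), Col1a2 (-0.77), Dlk1 (-1.70) and Igfbp5 (0.34) were no longer called. No cause was tested.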

How the results depend on the processing

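The 179 gene results named by comparison were recomputed under each alternative. Left out of the 179 were the 10 interaction genes without printed values, 7 of which changed direction under at least 1 alternative. Of the 2652 values for the 179, 2432 kept their direction and their side of the threshold, 172 lost the call, 45 gained it and 3 changed direction. Those 3 were Id1 against all other Tnnt2 cells (-0.073 with Isl1 at 0 UMIs), and in the interaction Cxcl12 (0.068 with at least 2 UMIs each of Bmp2 and Tbx2) and Nppa (-0.10 to 1.28 over the left-out libraries). Counts of called genes are given in the order all other Tnnt2 cells, Bmp2/Tbx2-negative cells, Shox2 cells, Sema3c cells, genotype and interaction. DESeq2 gave 1208, 1233, 891, 546, 10 and 7. Requiring at least 2 UMIs of Bmp2 and of Tbx2 gave 860, 1107, 795, 830, 21 and 39. Leaving out 1 library gave 1163 to 1948, 1292 to 2288, 846 to 1603, 796 to 1231, 27 to 99 and 19 to 103. At least 10 counts in every sum gave 990 against Shox2 cells, 66 for genotype and 5 for the interaction. For genotype, no filter on low counts gave 1 and removal of Scrublet doublets 90. Alternatives chosen after seeing the data gave 6 for genotype and 9 for the interaction with Isl1 at 0, and 23 for the interaction with Sema3c at 0. Without a filter the share of calls that were higher against all other Tnnt2 cells was 31.7% in place of 40.1%, with a median over all genes of -0.167.

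Libraries with the same replicate number did not deviate together (r = -0.00355 over 9092 genes). With the replicate block 82 genes were called between the genotypes and with the crossed replicate block 81, all 36 among both. The difference in the share of AVC cells ranged from 0.306 points (thinned to 2000 UMIs) to 1.54 points (Tnnt2 at least 20 CP10K). The cause of these changes was not tested. Depth limits the least abundant genes in Wt1, with 449257 UMIs, most, and no value here separates fewer cells from fewer molecules per cell near the limits of 1 UMI.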
